A study of Mus musculus with 20 samples.

Results

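The 10 endothelial identity genes *Pecam1*, *Cdh5*, *Vwf*, *Kdr*, *Flt1*, *Tek*, *Tie1*, *Emcn*, *Egfl7* and *Esam*, chosen by symbol, were read from the abdominal aorta of 20 mice, where they were 10 of 43422 genes with a value. RNA was sequenced on day 14 of an infusion through osmotic pumps, in 4 groups of 5: WT and *Plod1*-/- mice, each given either saline or Ang II. Ang II (angiotensin II, a peptide that raises blood pressure) was given at 1000 ng/kg per minute. All mice were on the C57BL/6 background (substrain C57Bl/6NCrl), and the labels give an age of 6 months. *Plod1*-/- mice lack lysyl hydroxylase 1 (LH1), an enzyme that modifies collagen, in every cell, and their WT controls were littermates from heterozygous crosses. The study compared the groups to learn how loss of LH1 alters the transcriptional response of the aorta to Ang II. The values are FPKM, sequenced fragments scaled to transcript length and to the size of the library, so levels of different genes can be compared per length.

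Endothelial cells line the lumen of every vessel as a single layer, and in the aorta they are a small part of a wall made mainly of smooth muscle. They are held together by VE-cadherin (*Cdh5*), PECAM-1 (*Pecam1*) and ESAM (*Esam*). They sense the VEGF growth factors through VEGFR2 (*Kdr*) and VEGFR1 (*Flt1*), which binds VEGF-A tightly and signals weakly, and the angiopoietins through TIE2 (*Tek*), with TIE1 (*Tie1*) as its partner receptor. Von Willebrand factor (*Vwf*) and EGFL7 (*Egfl7*) are secreted, and endomucin (*Emcn*) is a surface sialomucin best known from veins and capillaries. *Pecam1* and *Vwf* are also made by megakaryocytes. In whole tissue, fewer endothelial cells and less RNA per endothelial cell cannot be told apart.

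The 10 genes lie on 8 chromosomes of GRCm38, from *Egfl7* on chromosome 2 (ENSMUSG00000026921, 26580014 to 26593120) to *Pecam1* on chromosome 11 (ENSMUSG00000020717, 106654217 to 106750628). *Kdr* and *Flt1* share chromosome 5, and *Tek* and *Tie1* share chromosome 4. The libraries were not strand-specific, and 2 members overlap another gene. *Cdh5* overlaps the antisense transcript *Gm29682*, which reached at most 0.0805 FPKM. The end of *Egfl7* shares 64 bases, all of them exonic, with *Agpat2* on the opposite strand, a gene of lipid synthesis that reached 535 FPKM, so the *Egfl7* values are uncertain. *Egfl7* also hosts *Mir126a* on its own strand, and *Mir126b* lies within it on the opposite strand; neither was among the listed genes. The 3p arm of miR-126a, a microRNA well known from endothelium, is shown from RefSeq (GRCm38.p6) with the seed, bases 2 to 8, in capitals.
mmu-miR-126a-3p: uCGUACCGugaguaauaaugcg

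RefSeq promoter sequences were matched for 6 members, *Kdr*, *Flt1*, *Tek*, *Tie1*, *Emcn* and *Egfl7*. *Pecam1*, *Cdh5*, *Vwf* and *Esam* had no entry. The 250 bases before the start are shown for *Kdr* and *Emcn*, which rose together under Ang II, and for *Flt1* and *Tek*, which did not pass the same threshold. *Flt1* also rose in WT mice, but by less than that threshold. Capitals mark GGAA or, on the other strand, TTCC, the core letters bound by ETS factors such as ERG and FLI1. The positions in GRCm38.p6 are chr5:75978456-75978705 on the minus strand for *Kdr*, chr3:137340828-137341077 on the plus strand for *Emcn*, chr5:147726012-147726261 on the minus strand for *Flt1* and chr4:94739039-94739288 on the plus strand for *Tek*.
Kdr: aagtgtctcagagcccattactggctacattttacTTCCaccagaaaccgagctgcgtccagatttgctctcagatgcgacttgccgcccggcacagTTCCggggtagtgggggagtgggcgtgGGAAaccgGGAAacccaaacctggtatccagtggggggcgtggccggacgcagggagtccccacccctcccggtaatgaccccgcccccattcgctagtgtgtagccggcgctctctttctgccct
Emcn: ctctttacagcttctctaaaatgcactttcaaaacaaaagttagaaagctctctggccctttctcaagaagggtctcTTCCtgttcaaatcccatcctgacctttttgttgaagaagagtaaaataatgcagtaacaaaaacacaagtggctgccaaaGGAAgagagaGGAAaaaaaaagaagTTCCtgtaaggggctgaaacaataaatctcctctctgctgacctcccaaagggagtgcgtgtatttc
Flt1: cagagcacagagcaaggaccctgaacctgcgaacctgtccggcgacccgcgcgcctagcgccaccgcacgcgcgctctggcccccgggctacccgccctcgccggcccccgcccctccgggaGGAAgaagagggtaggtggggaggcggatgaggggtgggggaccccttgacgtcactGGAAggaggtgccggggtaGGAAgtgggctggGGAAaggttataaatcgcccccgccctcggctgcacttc
Tek: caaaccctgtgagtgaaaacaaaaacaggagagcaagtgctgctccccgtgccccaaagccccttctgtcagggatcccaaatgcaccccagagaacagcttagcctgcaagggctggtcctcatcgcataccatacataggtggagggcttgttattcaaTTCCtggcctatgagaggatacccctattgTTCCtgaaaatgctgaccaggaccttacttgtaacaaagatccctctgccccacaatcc

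Counted on both strands, GGAA stood 4 times before *Kdr*, 4 times before *Emcn*, 4 times before *Flt1* and 2 times before *Tek*, and 93.4% of 32851 RefSeq promoters of the same length held it, with a median of 3. The longer form ACAGGAA, or TTCCTGT, which contains GGAA, stood 2 times before *Emcn*, 1 time before *Tie1* and 1 time in each of 2 of the 3 *Egfl7* promoters, and not before *Kdr*, *Flt1* or *Tek*, against 7.2% of all promoters with at least 1 copy. TATAAA or its reverse TTTATA was found before *Flt1* 1 time and in 12.4% of all promoters. AGATAA or its reverse TTATCT was before none of the 4, against 9.99% of all promoters. These are letter matches in 1 window and no measurement of binding.

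*Plod1* was at 22.8 FPKM or more in every WT library and at 0.0415 or less in every *Plod1*-/- library. Relative depth, from the spacing of the lowest values of 2682 genes, ran from 0.902 to 1.09, and the absolute depth of each library is unknown. *Xist* RNA, made from an inactive X chromosome, reached 15.1 FPKM in replicate 5 of the saline-treated *Plod1*-/- group and 7.93 in Ang II-treated *Plod1*-/- replicate 1, although the study describes only males. Ang II-treated *Plod1*-/- replicate 1 also stood apart in tissue makeup, with smooth muscle *Acta2* at 14456 FPKM against 1901 to 5460 in the other 4 mice of its group. Ang II-treated WT replicate 4 had 14302 FPKM of *Acta2* against 4582 to 8599 in the rest of its group. Many of the results that rest on these libraries, but not all, are given with and without them.

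Under saline the members spanned a wide range of levels. In WT mice *Pecam1* was highest at 119 ± 49.4 FPKM (SD, n = 5), followed by *Esam* at 28.4 ± 7.56, and every mouse kept *Pecam1* above *Esam* and *Esam* above *Tie1*. *Tie1* (16.8 ± 7.26), *Vwf* (15.5 ± 6.82) and *Cdh5* (14.1 ± 4.63) came next and changed places from mouse to mouse. *Egfl7* stood at 8.92 ± 4.00, *Tek* at 7.51 ± 2.59, *Flt1* at 3.404 ± 1.07, *Emcn* at 1.403 ± 0.594 and *Kdr* at 0.755 ± 0.733 FPKM. The order in saline-treated *Plod1*-/- mice was nearly the same, from *Pecam1* at 62.4 ± 30.6 to *Kdr* at 1.06 ± 0.873 FPKM. Under Ang II the range narrowed at both ends. *Pecam1* was at 62.9 ± 16.8 FPKM in WT and 44.8 ± 20.8 in *Plod1*-/- mice, whereas the lowest member mean was *Emcn* at 5.01 ± 2.24 FPKM in WT and *Kdr* at 3.59 ± 1.88 in *Plod1*-/- mice.

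**Figure D1:**
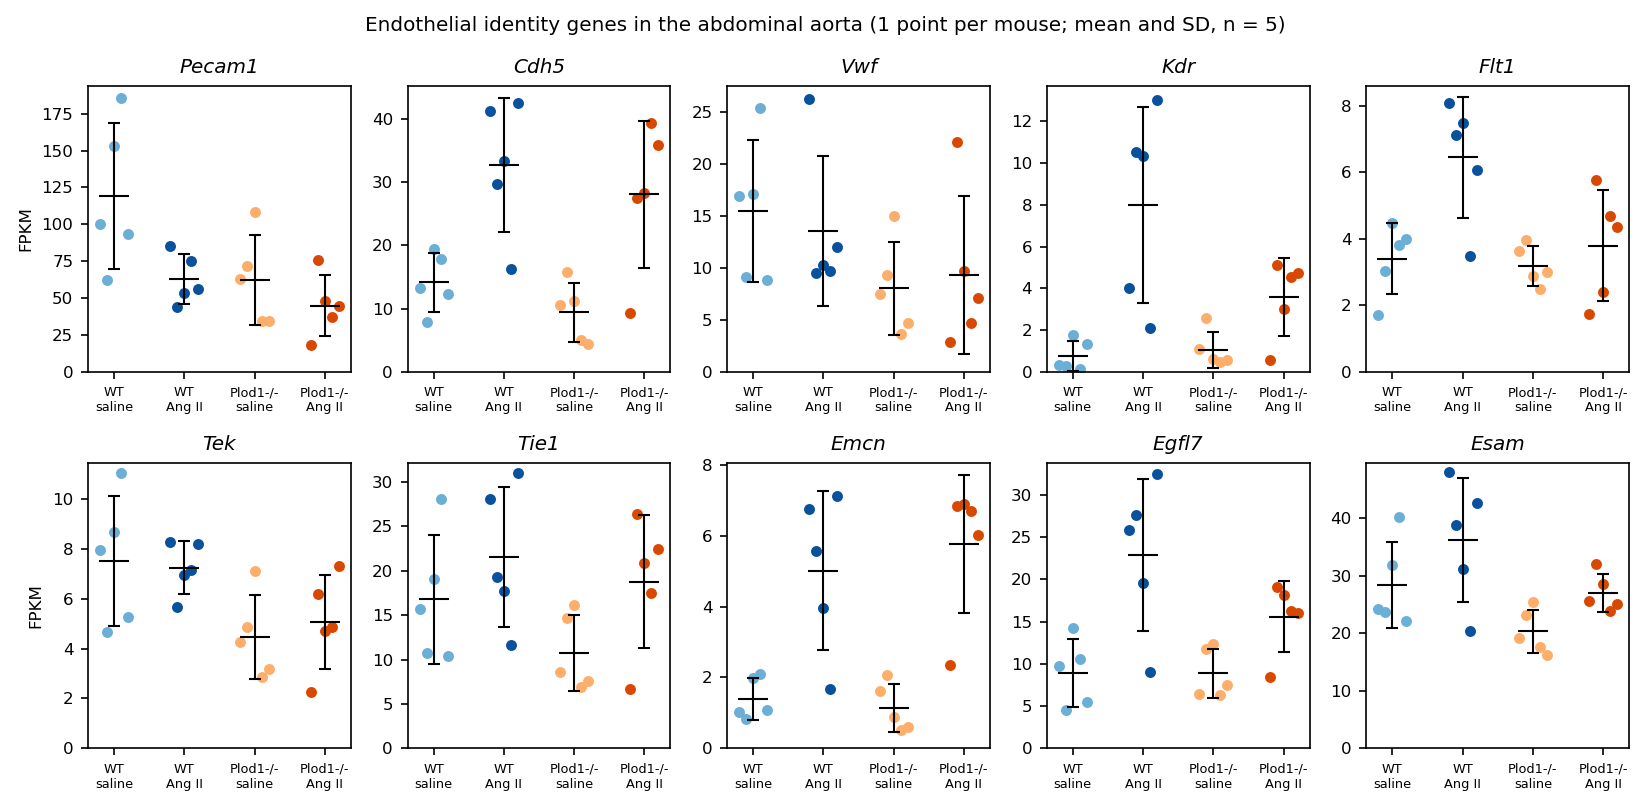
FPKM of each endothelial identity gene (linear axis from 0) in the 4 groups, with 1 point per mouse and the mean and SD in black (n = 5). *Kdr*, *Emcn*, *Cdh5* and *Egfl7* sit higher under Ang II in both genotypes, *Pecam1* has its lowest group mean in Ang II-treated *Plod1*-/- mice (44.8), and replicate 1, the leftmost point of that group, lies below the other 4 mice for *Cdh5*, *Emcn* and *Egfl7*.

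The response to Ang II was compared within each genotype with limma on log2(FPKM + 1). This scale shrinks differences between low FPKM values. A gene was counted as a differentially expressed gene (DEG) at an adjusted p-value below 0.05 over all genes tested, provided that the means differed by more than 1 log2 unit either way. In WT mice 4 of the 10 members were DEGs, *Kdr*, *Egfl7*, *Emcn* and *Cdh5*, all higher under Ang II, and 6.38% of the 11994 genes tested were DEGs with higher expression. In *Plod1*-/- mice 3 of the 10 were DEGs, *Emcn*, *Cdh5* and *Kdr*, again all higher, against 8.38% of 12333 genes. The share of a library's FPKM on mitochondrial genes was 8.37 to 14.6% in saline-treated and 14.6 to 29.1% in Ang II-treated WT mice, and 9.93 to 16.2% and 9.23 to 21.1% in the *Plod1*-/- groups. With those genes left out and the rest rescaled, the same 4 members were DEGs in WT mice, while in *Plod1*-/- mice *Kdr* was not (adjusted p = 0.0541 by limma). The median log2 difference of the 10 members was 0.56 in WT and 0.56 in *Plod1*-/- mice, beside medians of -0.14 and 0.05 over all genes tested. The VEGF receptor *Kdr*, the sialomucin *Emcn* and the cadherin *Cdh5* were thus DEGs in both genotypes, *Egfl7* in WT mice, and *Pecam1*, *Vwf*, *Flt1*, *Tek*, *Tie1* and *Esam* in neither.

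*Kdr*, the main signalling receptor for VEGF-A, had the largest difference of the members in WT mice. Its FPKM under saline in WT mice was 0.325, 0.258, 1.74, 0.115 and 1.33, and in the Ang II-treated WT mice 3.99, 10.508, 10.3, 2.11 and 13.04. The groups did not overlap, which held for 10.4% of all genes tested in the upward direction, and no other member reached this in WT mice. The ratio of the mean FPKM was 10.6, and the log2 difference was 2.24 (adjusted p = 0.00364 by limma, SE 0.42). In saline-treated *Plod1*-/- mice *Kdr* was at 1.08, 2.56, 0.599, 0.450 and 0.589 FPKM, and in Ang II-treated *Plod1*-/- mice at 0.554, 5.11, 3.0003, 4.55 and 4.72. Here 4 of the 5 Ang II-treated mice lay above every saline-treated mouse, and replicate 1 lay among the lowest. The log2 difference was 1.09 (adjusted p = 0.0411 by limma, SE 0.39). It was 1.45 (adjusted p = 0.00117) without replicate 1, but the call held in 2 of the 10 fits that left out a mouse, those without this replicate or without saline-treated *Plod1*-/- replicate 2. Over the 10 fits the log2 difference ran from 0.95 to 1.45 and the adjusted p up to 0.0918.

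*Flt1*, the second VEGF receptor, moved less. It rose in WT mice from 1.72, 3.02, 4.47, 3.82 and 3.98 FPKM under saline to 8.09, 7.11, 7.49, 3.47 and 6.07 under Ang II, a log2 difference of 0.76 (adjusted p = 0.0248 by limma, SE 0.23) that stayed under the log2 threshold of 1. Among *Plod1*-/- mice it was at 3.65, 3.95, 2.87, 2.48 and 2.998 FPKM under saline and at 1.75, 5.78, 2.39, 4.69 and 4.34 under Ang II. These values overlapped widely, and the log2 difference was 0.13 (adjusted p = 0.693 by limma, SE 0.24).

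Since both receptors were read in the same library, their ratio does not depend on how the library was scaled. The FPKM ratio *Kdr*:*Flt1* had a median of 0.189 in WT mice given saline and 1.38 in WT mice given Ang II. The groups did not overlap, and the difference in the mean log2 ratio was 2.87 (SE 0.79), with a two-sided exact permutation p of 0.00794, the smallest that 5 mice against 5 allow, and 0.0423 after adjustment over 8 tests. In the knockout mice the median went from 0.209 under saline to 0.970 under Ang II, a difference of 1.60 (SE 0.49, exact permutation p = 0.0159, adjusted 0.0423). Between the Ang II-treated genotypes the log2 ratio differed by -0.36 (SE 0.54, exact permutation p = 0.516), and by -0.02 without Ang II-treated *Plod1*-/- replicate 1, -0.11 without Ang II-treated WT replicate 5 and -0.64 without WT replicate 1 of that treatment. These ratios were taken without an added 1, and *Kdr* was low under saline, so their size depends on small values. With 1 added to each FPKM, the differences between Ang II and saline were smaller. They were 1.49 in WT and 0.97 in *Plod1*-/- mice (exact permutation p = 0.00794 and 0.0159). The 2 receptors thus changed unequally under Ang II in each genotype.

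*Tek* and *Tie1*, the Tie receptors, did not pass the test in either genotype. *Tek* was at 7.51 ± 2.59 FPKM in saline-treated and 7.24 ± 1.07 in Ang II-treated WT mice (SD, n = 5). In mice without LH1 it was at 4.46 ± 1.69 under saline and 5.07 ± 1.90 under Ang II. The log2 difference of *Tek* was -0.0021 in WT mice (95% CI -0.44 to 0.43) and 0.14 in *Plod1*-/- mice (95% CI -0.46 to 0.73). *Tie1* had values of 16.8 ± 7.26 and 21.5 ± 7.90 FPKM in saline- and Ang II-treated WT mice, and of 10.8 ± 4.29 and 18.8 ± 7.48 in the *Plod1*-/- groups. Its log2 difference of 0.70 in *Plod1*-/- mice (adjusted p = 0.129 by limma, SE 0.35) became 1.01 (adjusted p = 0.00676) without Ang II-treated *Plod1*-/- replicate 1, where *Tie1* was at 6.69 FPKM against 17.5 to 26.4 in the other 4 mice. The ratio *Tek*:*Tie1* was lower under Ang II in *Plod1*-/- mice, with a median of 0.422 under saline and 0.278 under Ang II, a difference of -0.60 in log2 (SE 0.15, exact permutation p = 0.0159, adjusted 0.0423). In WT mice the difference in this log2 ratio was -0.37 (SE 0.23, exact permutation p = 0.151).

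**Figure D2:**
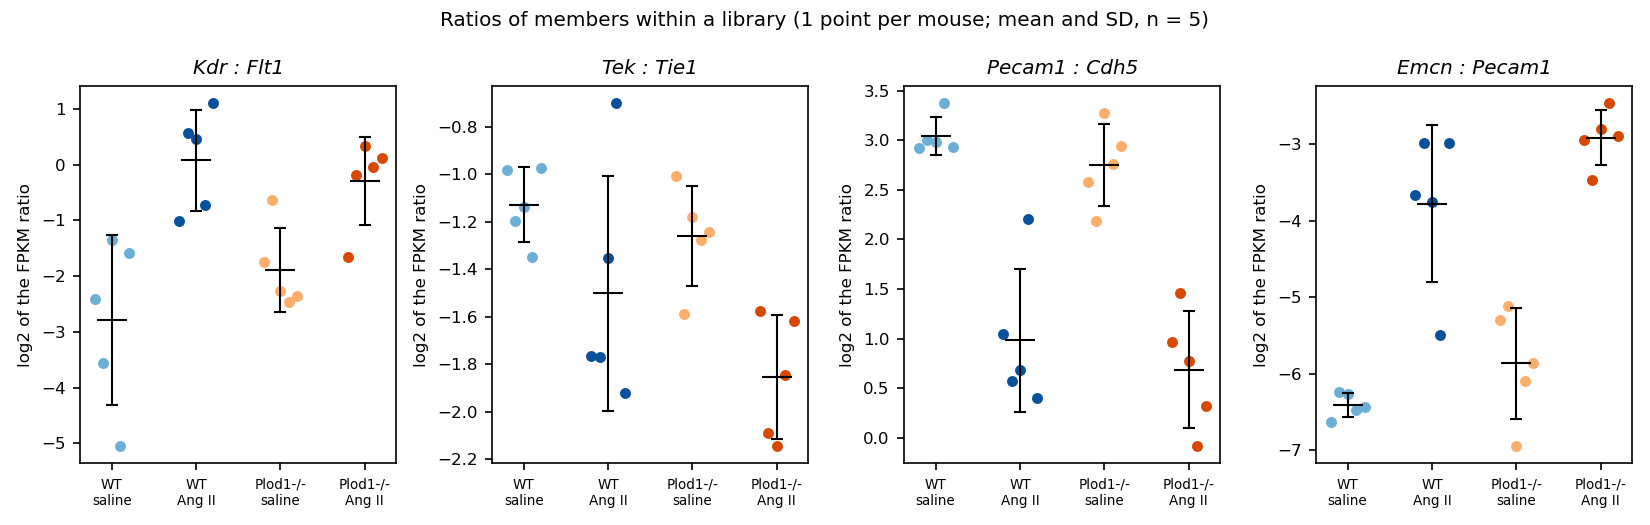
Log2 of the FPKM ratio of 2 members in the same library, with 1 point per mouse and the mean and SD in black (n = 5). *Kdr*:*Flt1* lies higher under Ang II in both genotypes, *Tek*:*Tie1* lies lower in Ang II-treated *Plod1*-/- mice (median 0.278 against 0.422 on the linear scale), and *Pecam1*:*Cdh5* and *Emcn*:*Pecam1* were chosen after their values were seen.

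Among the junction proteins, *Cdh5* was higher under Ang II in both genotypes, whereas *Pecam1* was lower in WT mice by the adjusted p-value alone. *Cdh5*, the defining adhesion molecule of endothelial junctions, was at 13.3, 7.82, 19.4, 17.8 and 12.3 FPKM in WT mice given saline and at 41.3, 29.7, 33.4, 16.3 and 42.6 in WT mice given Ang II. Only Ang II-treated replicate 4 fell within the saline range. The log2 difference was 1.14 (adjusted p = 0.0113 by limma, SE 0.28), and it was 0.96 without saline-treated WT replicate 2, just under the log2 threshold. In *Plod1*-/- mice *Cdh5* was at 10.51, 15.8, 11.1, 5.09 and 4.46 FPKM under saline and at 9.25, 27.5, 28.3, 39.4 and 35.9 under Ang II. Again 1 Ang II-treated mouse, replicate 1, fell within the saline range. The log2 difference was 1.47 (adjusted p = 0.0154 by limma, SE 0.42), and 1.81 (adjusted p = 0.00113) without that mouse.

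*Pecam1*, the most abundant member, was at 101, 62.5, 153, 185 and 93.6 FPKM in WT mice given saline and at 85.5, 44.2, 53.6, 74.998 and 56.3 in WT mice given Ang II. The groups overlapped between 62.5 and 85.5 FPKM. *Pecam1* fell in WT mice by the adjusted p-value alone, with a log2 difference of -0.85 (adjusted p = 0.0351 by limma, SE 0.28), and 21.5% of all genes tested were lower by that rule. Without saline-treated WT replicate 2 it was -1.05 and a DEG. Among *Plod1*-/- mice it was at 63.0, 71.8, 108, 34.6 and 34.4 FPKM under saline and at 18.04, 75.5, 48.3, 37.1 and 44.8 under Ang II, with a log2 difference of -0.47 (adjusted p = 0.368 by limma, SE 0.40), or -0.19 (adjusted p = 0.675) without Ang II-treated replicate 1.

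The ratio *Pecam1*:*Cdh5*, chosen after its values were seen and given without a test, separated the treatments in both genotypes. It ran from 7.56 to 10.4 in saline-treated and from 1.32 to 4.61 in Ang II-treated WT mice. In the knockout mice it ran from 4.54 to 9.72 under saline and from 0.942 to 2.74 under Ang II. *Cdh5* stood above *Pecam1* in a single mouse, Ang II-treated *Plod1*-/- replicate 4.

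*Esam*, a junctional member of the immunoglobulin family, was at 28.4 ± 7.56 FPKM in saline-treated and 36.2 ± 10.8 in Ang II-treated WT mice (limma adjusted p = 0.281). In mice without LH1 it rose by the adjusted p-value alone, from 20.3 ± 3.82 to 27.1 ± 3.31 FPKM, a log2 difference of 0.41 (adjusted p = 0.0318 by limma, SE 0.14). By this rule 23.8% of all genes tested were higher in *Plod1*-/- mice and 16.5% in WT mice, and 5 of 10 members were higher in each genotype. Such calls were fragile with a mouse left out: the adjusted p stayed below 0.05 in 4 of 10 fits for *Pecam1* and 6 for *Flt1* in WT mice, and in 5 for *Esam* and 3 for *Egfl7* in *Plod1*-/- mice. *Esam* in WT mice reached 0.0406 by limma without Ang II-treated replicate 4.

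*Emcn* was the member whose groups did not overlap in *Plod1*-/- mice, as for 14.2% of all genes tested in the upward direction. Its FPKM was 1.61, 2.07, 0.880, 0.506 and 0.594 under saline and 2.34, 6.83, 6.90, 6.70 and 6.02 under Ang II. The ratio of the means was 5.09, and the log2 difference was 1.65 (adjusted p = 9.97e-04 by limma, SE 0.28). In WT mice *Emcn* went from 1.01, 0.827, 1.997, 2.09 and 1.09 FPKM to 6.74, 5.57, 3.97, 1.66 and 7.11, with Ang II-treated replicate 4 within the saline range, a log2 difference of 1.25 (SE 0.29) and a limma adjusted p of 0.00888. Relative to *Pecam1*, in a ratio also chosen after the values were seen, *Emcn* was at 0.0101 to 0.0132 in saline-treated and at 0.0222 to 0.126 in Ang II-treated WT mice. The same ratio was 0.00812 to 0.0288 under saline and 0.0904 to 0.181 under Ang II in *Plod1*-/- mice.

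*Egfl7*, a secreted vascular matrix protein, was at 9.74, 4.48, 14.3, 10.6 and 5.46 FPKM in saline-treated and at 25.8, 27.6, 19.6, 9.01 and 32.4 in Ang II-treated WT mice. Its log2 difference was 1.26 (adjusted p = 0.0194 by limma, SE 0.35), and the adjusted p missed the threshold without Ang II-treated WT replicate 2 or without replicate 5 (largest adjusted p over the mice left out 0.0520). *Agpat2*, which overlaps it, was at 26.4 ± 16.2 FPKM in saline-treated and 292 ± 198 in Ang II-treated WT mice, and its part in the *Egfl7* values was not tested. In *Plod1*-/- mice, where *Agpat2* was at 54.1 ± 55.3 FPKM under saline and 42.4 ± 16.5 under Ang II, *Egfl7* went from 8.87 ± 2.93 to 15.6 ± 4.22 FPKM, a log2 difference of 0.75 (adjusted p = 0.0304 by limma, SE 0.25).

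*Vwf*, stored in endothelial granules and needed for platelet adhesion, had no detectable response. It was at 15.5 ± 6.82 FPKM in saline-treated and 13.5 ± 7.17 in Ang II-treated WT mice, with 95% limits of the log2 difference from -0.89 to 0.52. Among *Plod1*-/- mice it was at 8.01 ± 4.49 under saline and 9.31 ± 7.60 under Ang II, with limits from -0.99 to 1.10. Ang II-treated *Plod1*-/- replicate 2 alone was at 22.1 FPKM and the other 4 mice at 2.90 to 9.66.

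**Figure D3:**
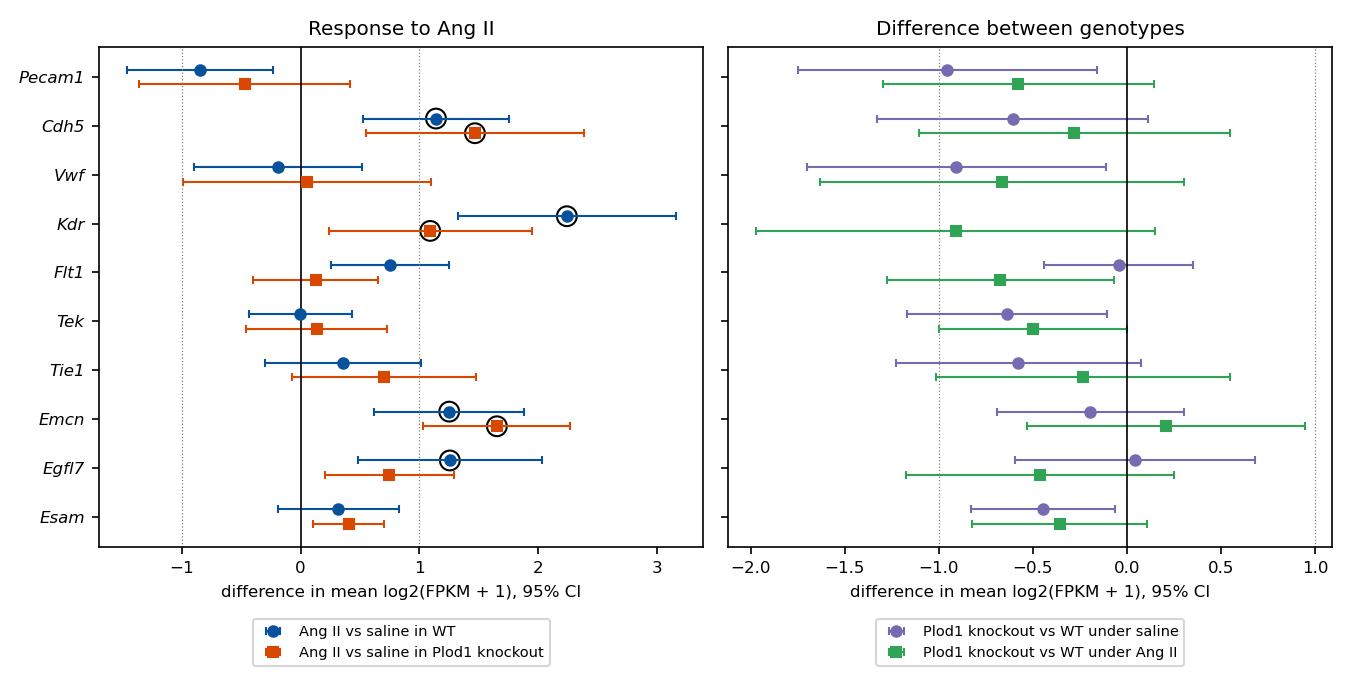
Difference in mean log2(FPKM + 1) of each member with its 95% confidence interval, for the response to Ang II in each genotype (left) and for *Plod1*-/- against WT mice under each treatment (right). Black rings mark DEGs and dotted lines a log2 difference of 1 in size. All 7 rings lie on the left at positive values, and *Kdr* under saline was below the filter on low values.

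Under saline, the loss of LH1 alone gave no DEG among the 9 members tested, and 0.767% of 11999 genes were DEGs. By the adjusted p-value alone the count was also 0, against 6.55% of all genes. The log2 difference was negative for 8 of the 9, with a median of -0.58 beside -0.01 over all genes. This median was -0.38 without saline-treated WT replicate 4 and -0.41 without saline-treated *Plod1*-/- replicate 5, which held *Xist* RNA. By limma's unadjusted p-value 4 members were under 0.05, *Pecam1*, *Vwf*, *Tek* and *Esam*, and by the exact permutation test 1, *Tek*. The largest of those 4 limma p-values, that of *Vwf* (0.0287), ranked 2514 of the 11999 genes, so many other genes were under 0.05 as well. *Pecam1* had the largest difference, 62.4 ± 30.6 FPKM in *Plod1*-/- against 119 ± 49.4 in WT mice, a log2 difference of -0.95 (95% CI -1.75 to -0.16, limma adjusted p = 0.121). *Vwf* was at 8.01 ± 4.49 against 15.5 ± 6.82 FPKM, a log2 difference of -0.91 (95% CI -1.70 to -0.11, limma adjusted p = 0.137). *Kdr* was below the filter, with medians of 0.599 FPKM in *Plod1*-/- and 0.325 in WT mice (exact permutation p = 0.516). The platelet and megakaryocyte markers (*Pf4*, *Ppbp*, *Itga2b*, *Gp1bb* and *Gp9*) summed to 12.1 to 30.5 FPKM in saline-treated *Plod1*-/- mice and to 31.6 to 78.2 in saline-treated WT mice. *Pf4* was most of this sum, at 14.3 ± 8.22 against 44.2 ± 17.5 FPKM. *Ppbp*, *Itga2b* and *Gp9* also had lower means in *Plod1*-/- mice, and *Gp1bb* a higher one (3.29 against 2.01 FPKM). Of the 3 tested 1 was a DEG, lower. The part of these markers in the *Pecam1* and *Vwf* values was not tested.

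Under Ang II, no member was a DEG between *Plod1*-/- and WT mice, where 11.1% of 12356 genes were DEGs. None passed by the adjusted p-value alone, as 31.2% of all genes did. The log2 difference was negative for 9 of 10 members, with a median of -0.48 beside 0.12 over all genes. Without Ang II-treated *Plod1*-/- replicate 1 it was negative for 7, with a median of -0.29, and *Cdh5* (0.06) and *Tie1* (0.08) turned positive, while without Ang II-treated WT replicate 4 it was negative for all 10, with a median of -0.52. *Flt1* was the member with an unadjusted limma p under 0.05 (0.0323, rank 4770 of the 12356 genes), and by the exact permutation test there was none. *Flt1* was at 3.79 ± 1.67 FPKM in Ang II-treated *Plod1*-/- and 6.45 ± 1.82 in Ang II-treated WT mice, a log2 difference of -0.67 (95% CI -1.28 to -0.07, limma adjusted p = 0.0837). *Kdr* was at 3.59 ± 1.88 against 7.99 ± 4.68 FPKM, a log2 difference of -0.91 (95% CI -1.97 to 0.15, limma adjusted p = 0.169), which was -0.56 (adjusted p = 0.304) without *Plod1*-/- replicate 1 and -1.24 (adjusted p = 0.0507) without WT replicate 4. Without Ang II-treated WT replicate 4, the adjusted p of *Flt1* was 0.0291, of *Egfl7* 0.0329 and of *Esam* 0.0192, with log2 differences of -0.85, -0.75 and -0.54, and no member was a DEG. *Emcn* differed by 0.21 (95% CI -0.53 to 0.94), and by 0.44 and -0.06 without the same *Plod1*-/- and WT mice in turn.

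Whether the response to Ang II differed between the genotypes was tested as an interaction over all 20 mice, where 16.1% of 13263 genes were called and no member was, nor was any by the adjusted p-value alone, which 37.8% of genes passed. None of the 10 was under 0.05 by limma's unadjusted p-value either, and the smallest, that of *Kdr* (0.0739), ranked 6901 of the 13263 genes. The widest difference was that of *Kdr*, whose log2 response was smaller in *Plod1*-/- mice by -1.15 (95% CI -2.43 to 0.12, limma adjusted p = 0.142). Without Ang II-treated WT replicate 4 it was -1.48 (adjusted p = 0.0401) and past the threshold, and without Ang II-treated *Plod1*-/- replicate 1 it was -0.80 (adjusted p = 0.246). For *Cdh5* and *Emcn* the responses differed by 0.33 (95% CI -0.78 to 1.43) and 0.40 (95% CI -0.49 to 1.29), intervals that leave room for a difference of the size of the threshold. These were 0.67 and 0.64 without Ang II-treated *Plod1*-/- replicate 1, and 0.11 and 0.13 without Ang II-treated WT replicate 4.

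The members also varied from mouse to mouse within a group. After the group means of log2(FPKM + 1) were subtracted, Pearson's r over the 20 mice ran from 0.19 to 0.90 in the 45 pairs of members, with a median of 0.66. These are descriptions, since members of a library share its tissue makeup and scaling. The 20 mice include Ang II-treated *Plod1*-/- replicate 1 and Ang II-treated WT replicate 4, and no r was computed without them. *Pecam1* went with *Vwf* (0.90) and *Tek* (0.90), and *Cdh5* with *Emcn* (0.89). The lowest pairs were *Kdr* with *Vwf* (0.19) and with *Pecam1* (0.23). On the values with group means kept, *Pecam1* and *Kdr* had an r of -0.18 and *Cdh5* and *Emcn* of 0.92, which include the response to Ang II.

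**Figure D4:**
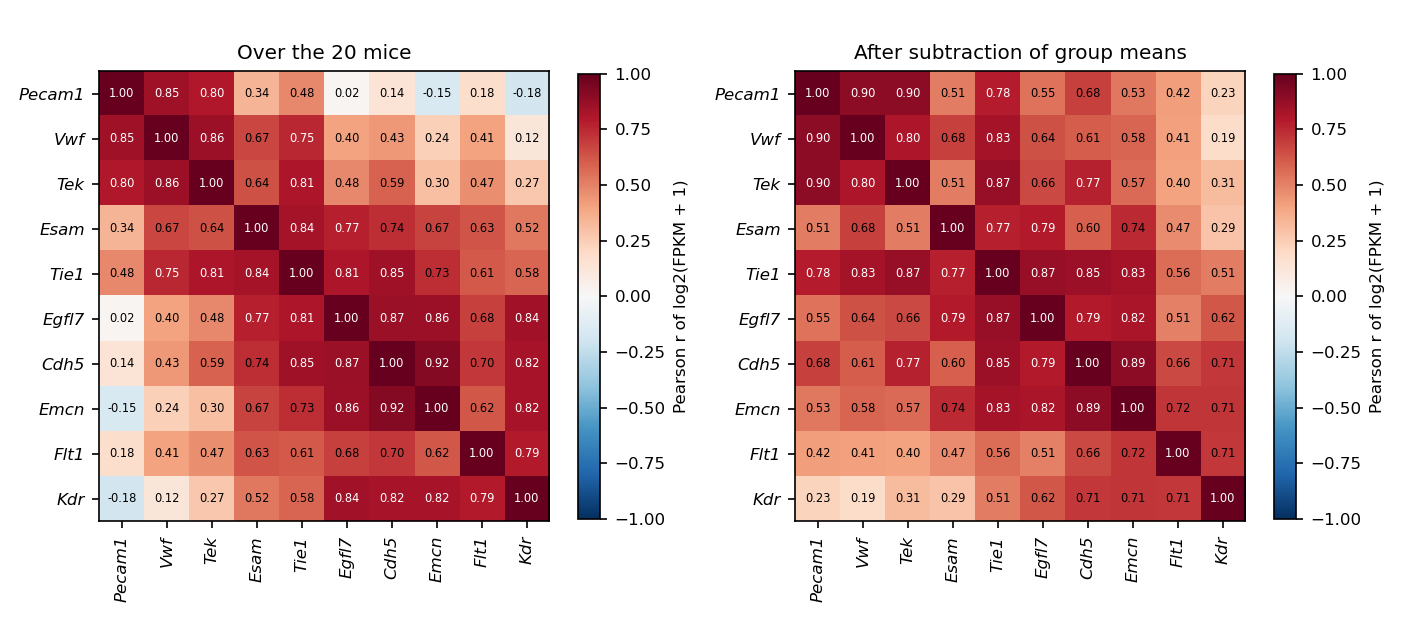
Pearson r of log2(FPKM + 1) between members over the 20 mice, on the values (left) and after the group means were subtracted (right), with the colour scale from -1 to 1. *Pecam1*, *Vwf* and *Tek* form the upper left block, and *Cdh5*, *Emcn*, *Flt1* and *Kdr* the lower right.

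Among 13228 genes outside the members, those whose deviations from the group means were most like the mean of the 10 members were *S1pr1* (Pearson r = 0.98), *Adcy4* (0.96), *Adgrg1* (0.95), *Gimap6* (0.95), *Arhgef15* (0.94), *B3gnt3* (0.94), *Gimap4* (0.94), *Sh2d3c* (0.93), *F11r* (0.93) and *Sema3g* (0.92), over 20 mice. *S1pr1* is the sphingosine 1-phosphate receptor of endothelium. On the values with group means kept, *F11r*, which encodes a junctional adhesion molecule, came first (0.95), followed by *Arhgef15* (0.95) and *S1pr1* (0.95).

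The partners of the members were read in the same comparisons, where DEGs among all genes tested were 6.38% higher and 2.28% lower in WT mice, and 8.38% higher and 5.51% lower in *Plod1*-/- mice. Of the 8 VEGF ligands and co-receptors, 3 were higher and 1 lower as DEGs under Ang II in WT mice (median log2 difference of all 8, 0.61). These were *Vegfa*, the main ligand of *Kdr*, at 2.11 (limma adjusted p = 0.00181), the co-receptor *Nrp2* at 1.43 (0.00181), *Vegfb*, a ligand of *Flt1*, at 1.30 (0.00520) and *Pgf*, another ligand of *Flt1*, at -1.14 (0.0190). In the knockout mice *Nrp2* was the 1 DEG of the 8, at 1.72 (limma adjusted p = 0.00361), with a list median of 0.69. By the adjusted p-value alone 3 of the 8 were higher and 2 lower there, and 5 were higher and 1 lower in WT mice. *Vegfa* itself was at 7.28, 7.18, 12.1, 6.35 and 12.6 FPKM in saline-treated and at 39.6, 57.1, 61.5, 19.3 and 43.8 in Ang II-treated WT mice, with no overlap. In *Plod1*-/- mice *Vegfa* was at 14.8, 22.1, 8.45, 9.78 and 7.49 FPKM under saline and at 7.30, 78.5, 19.9, 28.7 and 37.2 under Ang II. These values overlapped, and the log2 difference was 1.12 (limma adjusted p = 0.106, SE 0.52). Between the Ang II-treated genotypes *Vegfb* was lower in *Plod1*-/- mice, with a log2 difference of -1.17 (limma adjusted p = 0.0124).

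Of the 4 angiopoietins and Tie partners 3 could be tested. In *Plod1*-/- mice the ligand *Angpt4* fell with Ang II by 2.08 on the log2 scale (limma adjusted p = 2.32e-05). None was a DEG in WT mice, where 1 of the 3 was lower by the adjusted p-value alone. Median *Angpt4* was also lower under Ang II in WT mice, at 12.3 FPKM under saline and 5.94 under Ang II. In *Plod1*-/- mice it started from a higher saline level, 25.6 FPKM, and was 5.21 under Ang II. Of the 11 junction partners tested, *Cldn5*, the tight junction claudin of endothelium, was the 1 DEG in WT mice at 1.44 (limma adjusted p = 0.0200). In mice without LH1 1 was higher and 2 were lower, *Rasip1* at 1.10 (limma adjusted p = 0.00999), *Jup*, encoding plakoglobin, at -1.01 (3.46e-05) and *Jam3* at -1.16 (1.16e-04). *Jup* and *Jam3* are not limited to endothelium. Between the Ang II-treated genotypes 2 junction partners were lower in *Plod1*-/- mice, *Cgnl1* at -1.02 and *Cldn5* at -1.28 (limma adjusted p = 0.00427 and 0.0321).

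Of the 9 endothelial transcription factors none was a DEG in WT mice, and 2 were higher in Ang II-treated *Plod1*-/- mice, *Lyl1* at 1.92 (limma adjusted p = 0.00298) and *Fli1* at 1.18 (0.00729), both also active in blood cells. By the adjusted p-value alone 3 of the 9 were higher and 1 lower in *Plod1*-/- mice, and 1 was lower in WT mice. *Erg* was the lower one in *Plod1*-/- mice, at -0.53 (limma adjusted p = 0.0115). Its mean went from 24.9 to 16.6 FPKM there and from 28.6 to 20.3 in WT mice. Of the 19 other endothelial surface and secreted genes, 2 were higher in WT mice, *Robo4* at 2.16 (limma adjusted p = 0.00238) and *Notch4* at 1.29 (0.00601). In *Plod1*-/- mice 7 of the 19 were higher, led by *Ecscr* at 1.54, *Procr* at 1.30, *Cd93* at 2.50 and *Plvap* at 1.47 (limma adjusted p = 2.02e-04, 0.00155, 0.00177 and 0.00720). *Cd93* is also known from myeloid cells. Their list medians were 0.14 in WT and 0.40 in *Plod1*-/- mice. *Cxcr4*, the chemokine receptor of sprouting tip cells and of leukocytes, was the 1 higher of the angiogenic activation genes in each genotype, at 1.23 in WT and 3.55 in *Plod1*-/- mice (limma adjusted p = 0.00204 and 8.01e-04). *Pgf*, also counted there, was lower in WT mice.

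Markers of other vessels and cells moved beside the members. The 5 capillary endothelial genes (*Gpihbp1*, *Car4*, *Rgcc*, *Btnl9* and *Cd300lg*) summed to 18.2 to 75.1 FPKM in saline-treated and 86.6 to 487 in Ang II-treated WT mice, without overlap, and all 5 were DEGs, with a median log2 difference of 3.24. Among *Plod1*-/- mice the sum was 20.3 to 154 under saline and 44.9 to 287 under Ang II, and 2 of the 4 tested, *Gpihbp1* at 1.42 and *Car4* at 1.42, were DEGs (limma adjusted p = 0.0301 and 0.0468). The 3 brown adipocyte markers (*Ucp1*, *Cidea* and *Cox8b*) summed to 14.0 to 367 FPKM in saline-treated and 536 to 4229 in Ang II-treated WT mice, and to 19.3 to 1231 and 129 to 572 in the *Plod1*-/- groups. They were DEGs in WT mice, 3 of 3, and none was in *Plod1*-/- mice. The 5 general adipocyte markers (*Adipoq*, *Plin1*, *Cidec*, *Pparg* and *Lep*) summed to 14.3 to 122 FPKM in saline-treated and 267 to 1055 in Ang II-treated WT mice, where the 4 tested were all DEGs. The adipocyte sum in *Plod1*-/- mice was 39.6 to 406 under saline and 167 to 1668 under Ang II, with *Adipoq* the 1 DEG of 5, at 2.47 (limma adjusted p = 0.00983). The 6 arterial endothelial genes summed to 71.6 ± 18.9 FPKM in saline-treated and 67.3 ± 13.9 in Ang II-treated WT mice (SD, n = 5), and to 68.0 ± 14.2 and 55.3 ± 20.7 in *Plod1*-/- mice. *Gja4* was the largest part, at 46.4 and 39.4 FPKM in the WT groups. In WT mice the means of *Dll4* (0.899 to 4.78 FPKM) and *Sema3g* (5.05 to 10.6) were higher under Ang II, and those of *Gja4*, *Gja5*, *Bmx* and *Efnb2* lower. Of the 6, 1 was a DEG, higher, in WT mice and none in *Plod1*-/- mice. Between the Ang II-treated genotypes 1 was a DEG, lower in *Plod1*-/- mice. The lymphatic transcription factor *Prox1* stayed at or below 0.478 FPKM in every library. Its means under saline and Ang II were 0.0913 and 0.201 FPKM in WT mice, and 0.0602 and 0.290 in *Plod1*-/- mice. *Lyve1*, another gene of the lymphatic list, had means of 18.4 and 15.4 FPKM in WT mice and 13.6 and 14.4 in *Plod1*-/- mice. Of the 7 lymphatic genes 4 were tested, and none was a DEG under Ang II in either genotype. By the adjusted p-value alone 2 were higher in WT mice and 1 in *Plod1*-/- mice.

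*Gpihbp1*, which anchors lipoprotein lipase to capillaries, was low in the same Ang II-treated mice as *Kdr* and *Emcn*. Under saline, the 2 WT mice with the most *Kdr* (1.74 and 1.33 FPKM) were also those with the most *Gpihbp1* (10.7 and 8.63 against 0.874 to 1.77 in the other 3), and *Ucp1* was at 79.3 and 160 FPKM in them against 0.955 to 8.77. *Emcn* did not share this, with its highest saline value in WT replicate 4, where *Gpihbp1* was lowest. In Ang II-treated WT mice *Gpihbp1* was at 67.4, 74.8, 45.4, 8.88 and 71.6 FPKM, and replicate 4, the lowest, was also the lowest of its group for *Kdr*, *Emcn*, *Cdh5* and *Egfl7*. In Ang II-treated *Plod1*-/- mice it was at 6.34, 35.5, 14.7, 25.6 and 19.7 FPKM, with replicate 1 the lowest, as for all 4 of those members. *Pecam1* was also lowest in that mouse, at 18.04 FPKM, but Ang II-treated WT replicate 4 had its next to highest value of the group, 74.998 FPKM. The part of capillary endothelium and of adipose tissue in the higher member values was not tested.

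**Figure D5:**
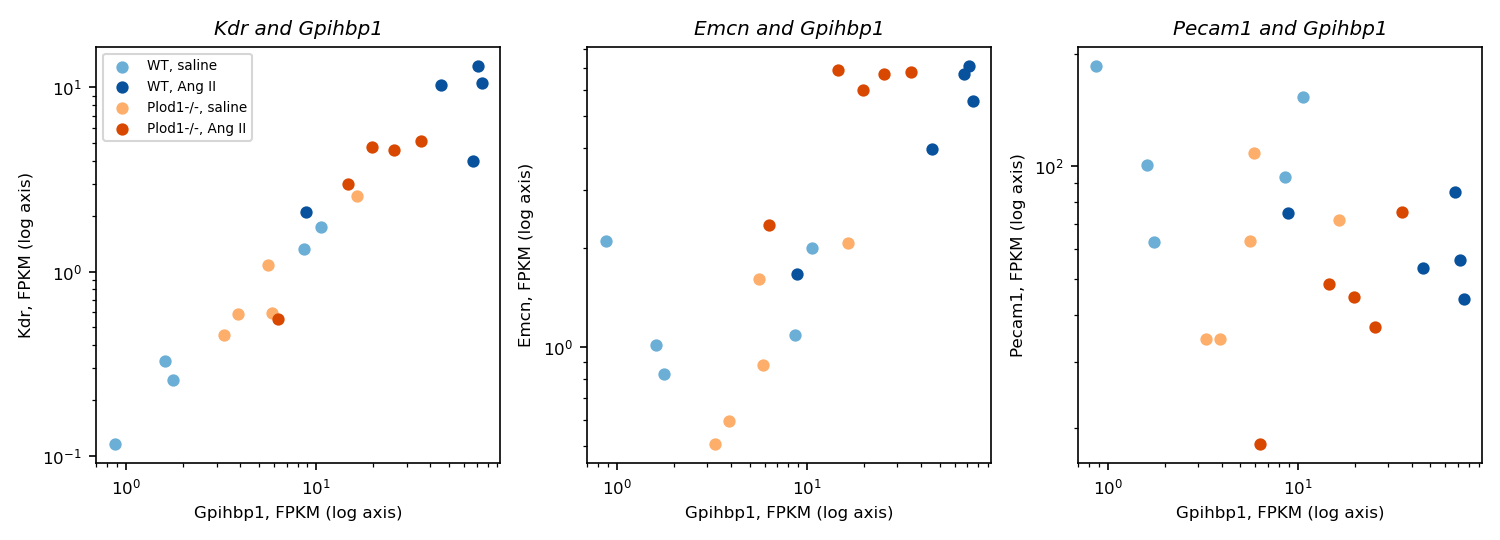
FPKM of *Kdr*, *Emcn* and *Pecam1* against FPKM of the capillary gene *Gpihbp1* (both axes logarithmic), with 1 point per mouse coloured by group. *Kdr* is high where *Gpihbp1* is high, up to 13.04 FPKM of *Kdr* in an Ang II-treated WT mouse, whereas the highest *Pecam1* values are in saline-treated WT mice.

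Blood cell markers were higher in Ang II-treated than in saline-treated *Plod1*-/- mice. Macrophage markers summed to 11.8 to 37.5 FPKM under saline and 89.8 to 628 under Ang II (6 of 6 DEGs), leukocyte markers to 5.62 to 22.7 and 41.7 to 323 (3 of 3 tested), and neutrophil markers to 0.966 to 2.43 and 147 to 643 (3 of 3 tested), none of them overlapping. The 3 erythroid markers, all DEGs, summed to 52.0 to 1319 and 680 to 8120 FPKM. None of the genes tested in these 4 lists was a DEG in WT mice. *Cd93*, *Lyl1*, *Fli1* and *Cxcr4* were higher in the same *Plod1*-/- mice, and the part of blood cells in them was not tested. The platelet and megakaryocyte sum was 12.1 to 30.5 FPKM under saline and 152 to 984 under Ang II, without overlap, and 4 of the 5 genes were DEGs. In WT mice the same sum was 31.6 to 78.2 and 23.9 to 97.5 FPKM. *Pecam1* and *Vwf*, which megakaryocytes also make, were not DEGs in *Plod1*-/- mice. The part of platelets and other blood cells in the values of the members was not tested. The 8 smooth muscle genes summed to 15171 to 20846 FPKM in saline-treated and 2324 to 16835 in Ang II-treated *Plod1*-/- mice, and to 14210 to 20531 and 5568 to 17219 in the WT groups. Skeletal muscle markers (*Acta1*, *Tnnt3* and *Ckm*) summed to 2.36 to 5.35 FPKM in saline-treated and 1.44 to 232 in Ang II-treated WT mice, 2 of 3 being DEGs, and to 4.15 to 6.78 and 2.59 to 7.49 in the *Plod1*-/- groups, with none of 2. FPKM are shares of a library, and the part of the smaller smooth muscle share in the higher member values was not tested.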

How the data were processed

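Abdominal aortas of 20 mice gave 1 unstranded RNA-seq library each. The authors removed ribosomal RNA reads, aligned with HISAT2 (2.1.0 in the submitters' processing notes, another version in the methods) to mm10 and quantified with stringtie, cuffquant and cuffnorm at default settings. The authors deposited FPKM for each Ensembl gene, scaled across libraries with cuffnorm. Counts were not used here, so no depth-based interval is given and edgeR was not run. Symbols and coordinates came from GENCODE M21 (GRCm38), which named 43226 of the 43422 genes, and promoters and microRNAs from RefSeq.

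log2(FPKM + 1) was fitted in limma 3.58.1 (R 4.3.3, with Python 3.11.15 for the rest) for genes reaching 1 FPKM in 5 or more of the mice compared, with eBayes and a variance trend. Benjamini-Hochberg adjustment ran over all genes tested. Tests were two-sided. A comparison held 10 mice, the interaction 20. Exact permutation tests used 252 splits. The fits were tested on simulated data. Alternatives were a pseudocount of 0.1, no filter, a replicate block, quantile normalization, no variance trend, weights per mouse, adjusted p alone, mitochondrial genes left out, libraries with *Xist* RNA left out, all 4 groups in a single fit and each mouse left out.

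The members, the 20 gene lists and the tests were chosen with earlier results of these data known. From each list at most 4 genes with the smallest p were named. *Agpat2*, *Acta2* and the ratios of *Pecam1* or *Emcn* were chosen after values were seen. The labels call the samples separate mice. The study's text states an age other than that of the labels.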

Additional observations from a re-analysis of the deposited data

Results flagged for a closer look

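In 4 of 40 member-by-group sets of 5 mice, 1 mouse lay further from the rest on log2(FPKM + 1) than Dixon's 95% limit allows. Chance gives about 1 in 20 per set, but the sets are not independent, since the members of a library share its tissue makeup. The count therefore cannot be judged against that rate. Ang II-treated *Plod1*-/- replicate 1 was low for *Cdh5* (9.25 FPKM, others 27.5 to 39.4), *Emcn* (2.34, others 6.02 to 6.90) and *Egfl7* (8.39, others 16.0 to 19.1). This library also held *Xist* RNA and a saline-like *Acta2* level. Ang II-treated WT replicate 1 was high for *Vwf* (26.2 FPKM, others 9.48 to 12.0).

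Of 58 genes tested in the 7 lists of endothelial partners, surface genes and capillary genes, 10 were called for the interaction, that is for a log2 response to Ang II that differed between *Plod1*-/- and WT mice. Over all genes 16.1% were called for the interaction, so the count in these lists is close to the general share. The response was larger in *Plod1*-/- mice for *Cd93* (by 2.34), *Cxcr4* (2.32), *Apln* (1.46), *Lyl1* (1.33), *Ecscr* (1.31) and *Procr* (1.07). The difference was negative for *Jup* (-1.05), *Angpt4* (-1.13), *Vegfb* (-1.97) and *Cd300lg* (-2.40). By median FPKM, saline to Ang II, *Angpt4* fell further in *Plod1*-/- mice (25.6 to 5.21) than in WT mice (12.3 to 5.94). *Jup* fell in *Plod1*-/- mice (25.7 to 11.6) and was nearly level in WT mice (22.1 to 22.4). *Vegfb* rose in WT mice (14.1 to 35.7) and fell in *Plod1*-/- mice (21.3 to 15.5). *Cd300lg* rose in both, and less in *Plod1*-/- mice. *Apln*, the ligand of tip cells, was at 0.0354 to 0.0498 FPKM in saline-treated and 0.0885 to 1.03 in Ang II-treated WT mice, and at 0.0121 to 0.235 and 0.696 to 7.71 in the *Plod1*-/- groups. It reached 1 FPKM in 5 Ang II-treated mice, 4 of them *Plod1*-/-, so it entered the interaction through the groups where it was high, was below the filter within each genotype, and its small values in WT mice are flattened by the added 1.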

How the results depend on the processing

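These results rest on FPKM without counts, 5 mice a group and whole tissue. No called member reversed under the alternatives run. In *Plod1*-/- mice the count of called members was 5 by adjusted p alone, against 3, and 2 to 4 with a mouse left out. *Kdr* lost its call there with a pseudocount of 0.1, no filter, quantile normalization or mitochondrial genes left out. In WT mice the count was 3 to 4 with a mouse left out, and without a filter *Egfl7* lost its call. With weights per mouse *Kdr* was called lower in *Plod1*-/- than in WT mice under Ang II (1 member against 0) and for the interaction (1 against 0). With a mouse left out the interaction count was 0 to 1, reached without Ang II-treated WT replicate 4. The counts under saline and between the Ang II-treated genotypes stayed at 0 with each mouse left out. Without the 2 libraries that hold *Xist* RNA the count was 3 for the response in *Plod1*-/- mice and 0 between the genotypes and for the interaction. Mice of the same number did not deviate together in every pair (r from -0.33 to 0.42). Such correlations cannot tell whether mice of the same number share a litter or a batch. The replicate block left every count of called members as it was, at 3 and 4 within *Plod1*-/- and WT mice and 0 elsewhere. Under this block the ratio tests have a smallest p of 0.0625, so the differences of 1.60 and 2.87 for *Kdr*:*Flt1* and -0.60 for *Tek*:*Tie1* could not pass. The *Tek*:*Tie1* difference in WT mice ranged from -0.57, then past the threshold without Ang II-treated WT replicate 4, to -0.27. After quantile normalization the median log2 difference over all genes between the Ang II-treated genotypes went from 0.12 to -0.03, with 744 higher and 612 lower DEGs against 920 and 453, and for the interaction from 0.12 to -0.01, with 1020 and 1095 against 1285 and 844. The causes of these changes were not tested.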
